A study of Mus musculus with 4 samples.

Results

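The Cyp2c cytochrome P450 genes Cyp2c29, Cyp2c37, Cyp2c38, Cyp2c39, Cyp2c50, Cyp2c54 and Cyp2c55 were followed in the liver of mice with a mutant Wrn protein, with and without vitamin C in the drinking water. Probes were assigned to them by matching the RefSeq accession of each probe to the gene symbol. This gave 8 probes for 6 of the 7 genes, out of 41174 probes on the array. Cyp2c37 and Cyp2c38 had 2 probes each, the other 4 genes had 1 each, and Cyp2c50 was not analysed here. All 8 probes passed the filter on low signals, as did 39328 probes in all. The treated group was 4 male Wrn mutant mice on the C57Bl/6 strain, aged 3 months, given 0.4% vitamin C from weaning onwards. The other group was 4 untreated male Wrn mutant mice of the same strain and age, so every animal carried the mutant protein, and wild type liver was not analysed here. The labels do not describe the Wrn allele further. Each of the 4 two-colour arrays held RNA of 1 treated liver in Cy3 and 1 untreated liver in Cy5, and a pair below means the 2 livers of 1 array.

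Cyp2c enzymes sit in the endoplasmic reticulum of hepatocytes, where they oxidise drugs and steroids and turn arachidonic acid into epoxides. They take electrons from cytochrome P450 reductase, and soluble epoxide hydrolase breaks their lipid products down. Several mouse Cyp2c genes are known targets of the nuclear receptors CAR and PXR, and HNF4A supports their transcription in hepatocytes. Many P450 genes are expressed mainly around the central vein of the liver lobule. The genes lie together on chromosome 19 and resemble each other closely. Probe sequences were not used here, so whether a probe also binds RNA of a related Cyp2c gene was not tested, and a signal of a single member is uncertain for that reason.

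Some of the members are also alike in their promoters, which are shown because members alike in this way did not all have the same ratios. Windows of RefSeq on GRCm38.p6 were searched on both strands, over 250 bases before each start, for CAAAGTC, a core that HNF4A is known to bind. It was found before 3 of the 6 member genes with an entry (Cyp2c29, Cyp2c37 and Cyp2c39), in 11 of 14 Cyp2c windows of any gene, and in 1262 of 32851 promoters (3.84%). Capitals mark the core or the 7 bases aligned with it, and each line reads 5′ to 3′ on the strand of the gene.
Cyp2c29, chr19:39286952-39287006, plus strand: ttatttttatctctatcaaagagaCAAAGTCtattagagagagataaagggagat
Cyp2c39, chr19:39347208-39347262, plus strand: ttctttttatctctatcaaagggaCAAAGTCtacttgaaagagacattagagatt
Cyp2c38, chr19:39463156-39463210, minus strand: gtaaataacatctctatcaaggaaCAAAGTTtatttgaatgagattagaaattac
Cyp2c37, chr19:39992284-39992338, plus strand: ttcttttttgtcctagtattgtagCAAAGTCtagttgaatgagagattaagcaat
Cyp2c50, chr19:40089541-40089595, plus strand: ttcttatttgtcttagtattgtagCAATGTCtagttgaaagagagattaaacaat
Counted from 1 at the 5′ end of the core, Cyp2c38 has C7T relative to Cyp2c39, and Cyp2c50 has A4T relative to Cyp2c37. Over the aligned promoters, Cyp2c37 and Cyp2c50 shared 84.3% of positions, Cyp2c38 and Cyp2c39 75.8%, Cyp2c29 and Cyp2c39 74.1%, and Cyp2c29 and Cyp2c37 54.5%. RefSeq lists a second start for Cyp2c39, whose window (chr19:39510712-39510766, plus strand) also holds the core. The promoter of this start shared 71.0% with Cyp2c38, 68.1% with Cyp2c29 and 71.4% with that of the first start. The Cyp2c38 window lies between both Cyp2c39 windows. Which start gave the Cyp2c39 RNA measured here was not tested. No match was found in the window of Cyp2c55, which says only that these letters are not there. The Cyp2c55 promoter shared 46.5% to 51.8% of positions with those of the other members. Cyp2c54 had no promoter entry. Unrelated promoters were not aligned, so these shares have no baseline here. A match describes the sequence and does not show a binding site.

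Each value is a log2 ratio, vitamin C over untreated, after loess within its array. The dye labels set this direction, and the deposited log2 table has the opposite sign. The dyes ran the same way on all 4 arrays, so dye and treatment effects of a probe cannot be told apart. Median spot intensities were 379.5 to 530 in Cy3 (vitamin C) and 813 to 962 in Cy5 (untreated), and negative controls read 62 to 67 in Cy3 and 66 to 80 in Cy5. The SD between repeat spots was 0.0732 to 0.0831 in log2 ratio. Array 2 stood apart: over 39328 probes its ratios correlated with those of arrays 1, 3 and 4 at r = 0.0499, -0.107 and -0.140, whereas the other 3 arrays correlated with each other at 0.569 to 0.777. These correlations run across probes and not across independent samples. Without pair 2 the member means were -0.12 for Cyp2c29, -0.11 and -0.34 for the probes of Cyp2c37, -0.14 for Cyp2c39, -0.19 for Cyp2c54 and 0.25 for Cyp2c55, none of them past the threshold, and those of Cyp2c38 are given with that gene. Were the channels of array 2 the reverse of their labels, every pair 2 ratio below would have the opposite sign, which was not tested. Of 12 hepatocyte identity genes, 10 had a probe past the filter, and all 10 were well above background in both channels on all 4 arrays. So were 37973 of the 39328 probes, and all 8 measured T and NK cell markers. This rule therefore does not identify the tissue.

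No Cyp2c member passed the test in treated against untreated livers. With limma and Benjamini-Hochberg adjustment over 39328 probes, 0 of 8 member probes and 0 of all probes (0%) passed an adjusted p of 0.05. The smallest adjusted p of any probe was 0.139. At an unadjusted limma p under 0.05, 0 of 8 member probes were higher with vitamin C, where 11.7% of all probes were, and 0 of 8 were lower, where 15.5% were. No member probe was above 0 on all 4 arrays (15.5% of all probes) or below 0 on all 4 (15.5%). The median over the member probes was -0.043 and that over all probes was -0.0091. The members had sizeable ratios within single pairs that differed between pairs: the medians of the 8 probes were 0.26, -0.068, 0.086 and -0.58 on arrays 1 to 4. All 8 probes lay above 0 on array 1, and 5 of 8 lay below 0 on array 4. The medians of all 17082 genes with a symbol were 0.0098, 0.0017, 0.013 and 0.017 on arrays 1 to 4. The limma p-values and intervals rest on the spread between these 4 pairs, moderated by the spread over all probes. They therefore do not follow from the printed SDs alone. An exact sign-flip test of 4 pairs cannot give a two-sided p below 1 in 8.

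**Figure D1:**
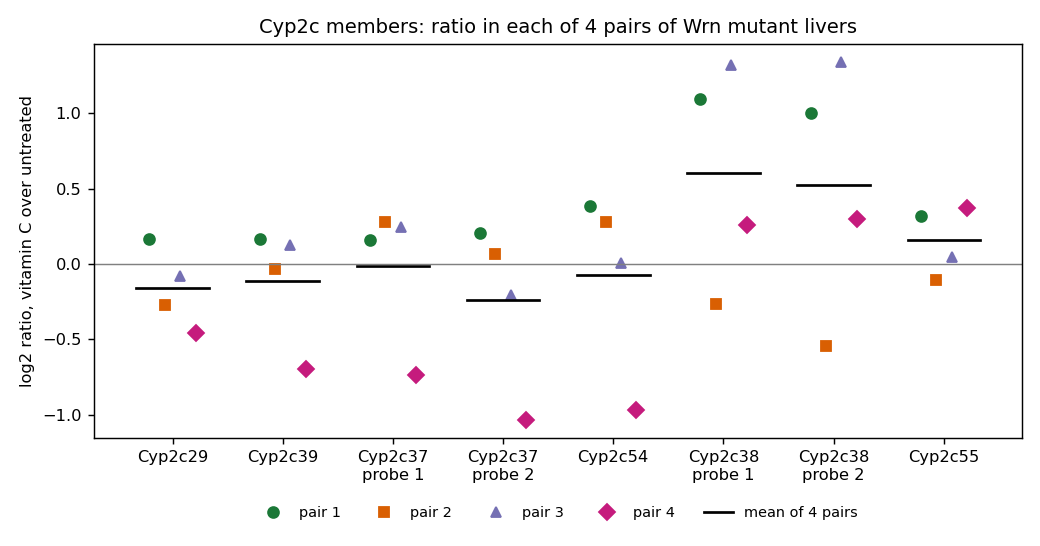
Log2 ratio of vitamin C over untreated (axis, after loess) for each Cyp2c probe in each of the 4 pairs, with the mean of the 4 arrays. Cyp2c29, Cyp2c37, Cyp2c39 and Cyp2c54 lie below -0.4 in pair 4, and both Cyp2c38 probes lie above 0.9 in pairs 1 and 3 and below 0 in pair 2.

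Cyp2c29, Cyp2c37, Cyp2c39 and Cyp2c54 shared a low ratio in pair 4. These 4 genes were put together after their values were seen, so no test is given for them as a group. Cyp2c54, an epoxygenase of arachidonic acid, had ratios of 0.39, 0.28, 0.0093 and -0.97 on arrays 1 to 4. Its levels (log2 normalized intensity, comparable within a probe only) were 13.83, 13.69, 13.40 and 12.56 in the 4 vitamin C livers, against 13.45, 13.41, 13.39 and 13.53 in the 4 untreated livers. The untreated livers thus lay within 0.147 of each other and the treated livers within 1.27, and treated liver 4 was below all 4 untreated livers. The mean was -0.073 ± 0.62 (SD, n = 4 pairs; limma adjusted p = 0.850; 95% interval -0.63 to 0.48).

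Cyp2c37, which also oxidises arachidonic acid, was measured by 2 probes. The first gave ratios of 0.16, 0.28, 0.25 and -0.73, with levels of 16.08, 16.14, 16.16 and 15.25 in vitamin C livers, against 15.92, 15.86, 15.92 and 15.98 in untreated livers. Treated livers 1 to 3 were above all 4 untreated livers on this probe, and treated liver 4 was below them. The second probe gave 0.21, 0.07, -0.20 and -1.03, with levels of 15.44, 15.28, 15.11 and 14.50 in vitamin C livers, against 15.23, 15.21, 15.32 and 15.53 in untreated livers. Both probes had their lowest treated liver in pair 4, at 0.601 and 0.488 times the untreated liver of the pair. They differed in pair 3, where the first was above 0 and the second below 0. The second minus the first was 0.047, -0.21, -0.45 and -0.30 in log2 ratio on arrays 1 to 4. The means were -0.013 ± 0.48 and -0.24 ± 0.56 (SD, n = 4 pairs; limma adjusted p = 0.969 and 0.463).

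Cyp2c39, known as a retinoic acid hydroxylase in mouse, had ratios of 0.17, -0.032, 0.13 and -0.70. Its levels were 14.27, 14.18, 14.23 and 13.45 in vitamin C livers, against 14.10, 14.21, 14.10 and 14.15 in untreated livers. The untreated livers spanned 0.113 and the treated livers 0.821, and treated liver 4 again lay below all others. The mean was -0.11 ± 0.40 (SD, n = 4 pairs; limma adjusted p = 0.652; 95% interval -0.48 to 0.26).

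Cyp2c29, an abundant drug-metabolising and epoxygenase P450 of mouse liver, also had its lowest ratio in pair 4, with values of 0.17, -0.27, -0.076 and -0.46. Its levels were 16.89, 16.62, 16.64 and 16.39 in vitamin C livers, against 16.73, 16.90, 16.71 and 16.85 in untreated livers. Treated liver 4 was lowest, treated livers 2 and 3 were also below all 4 untreated livers, and treated liver 1 lay within their range. The mean was -0.16 ± 0.27 (SD, n = 4 pairs; limma adjusted p = 0.348; 95% interval -0.42 to 0.10). Probes of like intensity had a median of -0.096.

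On array 4, the 5 probes of these 4 genes ran from -1.03 to -0.46. A ratio below -0.4 on array 4 was found for 3859 of all 39328 probes (9.81%). Of all probes, 446 (1.13%) were below -0.4 on array 4 and above -0.3 on arrays 1, 2 and 3. Both cut-offs lie just outside the values of the 5 member probes, so all 5 meet them by construction. These shares are descriptions and do not measure how rare the pattern is. The highest ratio among the 5 member probes ran from -0.65 to -0.38 across the 14 processing settings that kept all arrays. Settings that change only the filter or the fitted model leave a ratio of array 4 as it was, so they are no check on it. The range comes from the settings that change background, normalization or scaling. Without pair 4 the means turned to 0.23 and 0.025 for the probes of Cyp2c37, 0.087 for Cyp2c39 and 0.23 for Cyp2c54, whereas Cyp2c29 was at -0.061. Array 4 had 148 flagged spots of 43379, against 98 to 113 on the other arrays, and none of them was a member probe.

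**Figure D2:**
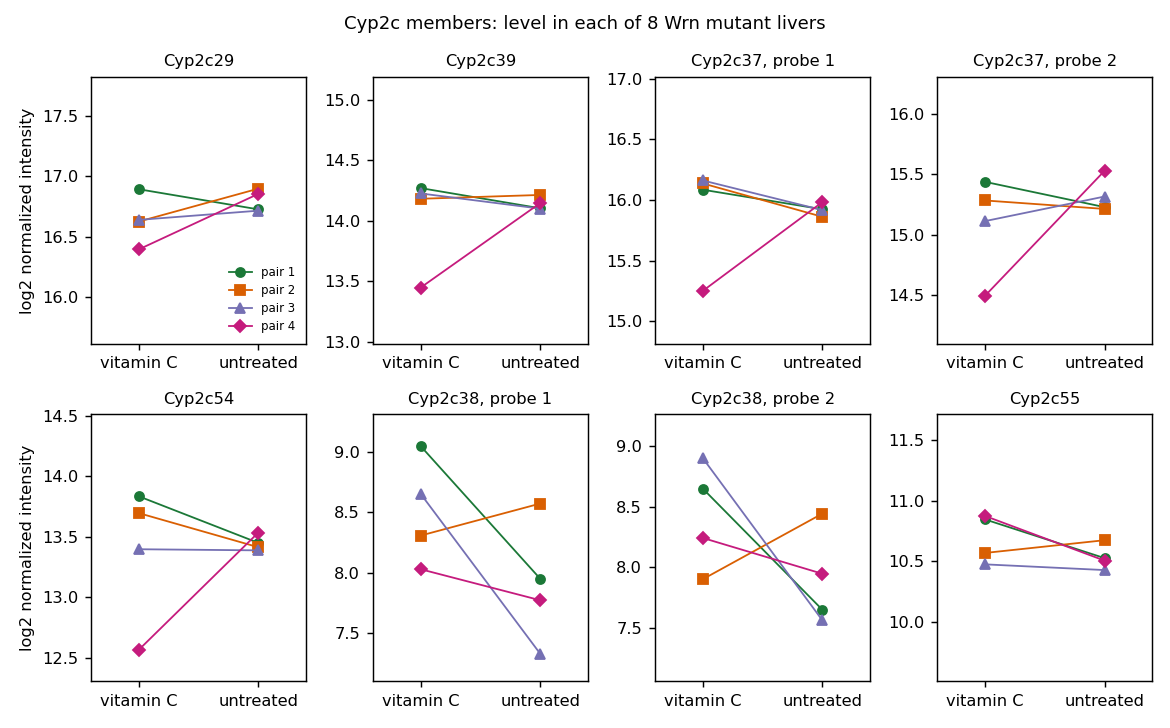
Log2 normalized intensity (axis) of each Cyp2c probe in the 4 vitamin C livers and the 4 untreated livers, with lines joining the livers of a pair. For the first Cyp2c37 probe, Cyp2c39 and Cyp2c54 the untreated livers lie close together and treated liver 4 lies below them, whereas for Cyp2c38 both groups are spread out.

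Cyp2c38 had the highest mean ratios of the members, and its pattern was another one. This gene is close to Cyp2c39 in sequence, and its enzyme makes arachidonic acid epoxides in mouse. Its first probe gave ratios of 1.097, -0.26, 1.32 and 0.26, which are 2.14, 0.832, 2.50 and 1.19 times the untreated liver of the pair. Its second probe gave 1.00, -0.54, 1.34 and 0.30. Both probes were above 0 in pairs 1, 3 and 4 and below 0 in pair 2, and their ratios differed by at most 0.278.

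The levels of the first Cyp2c38 probe were 9.05, 8.31, 8.65 and 8.03 in vitamin C livers, against 7.95, 8.57, 7.33 and 7.77 in untreated livers. Those of the second were 8.65, 7.90, 8.90 and 8.24 in vitamin C livers, against 7.65, 8.45, 7.56 and 7.95 in untreated livers. The groups overlapped on both probes: untreated liver 2 was the highest untreated one, and it exceeded treated liver 2. The means were 0.60 ± 0.74 and 0.52 ± 0.83 (SD, n = 4 pairs), or 1.52-fold and 1.44-fold, and did not pass (limma adjusted p = 0.206 and 0.295). The 95% intervals were -0.058 to 1.26 and -0.22 to 1.27. The SD of the first probe compares with a median SD of 0.113 among probes of like intensity.

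Without pair 2, both Cyp2c38 probes passed, at means of 0.89 and 0.88 (limma adjusted p = 0.0381 and 0.0350, n = 3 pairs). In that fit 9688 of all 39328 probes passed as well. Pair 2 is also the pair in which Cyp2c38 had its only ratios below 0.

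Cyp2c55, known as an arachidonic acid hydroxylase that PXR and CAR activators induce in mouse, had ratios of 0.32, -0.11, 0.047 and 0.37. Its levels were 10.84, 10.57, 10.47 and 10.87 in vitamin C livers, against 10.52, 10.67, 10.43 and 10.504 in untreated livers. Treated livers 1 and 4 lay above all untreated livers, and treated livers 2 and 3 lay within their range. The mean was 0.16 ± 0.23 (SD, n = 4 pairs; limma adjusted p = 0.297; 95% interval -0.068 to 0.38). In pair 4 its ratio was above 0, as was that of Cyp2c38, while the other 4 measured members were below 0.

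**Figure D3:**
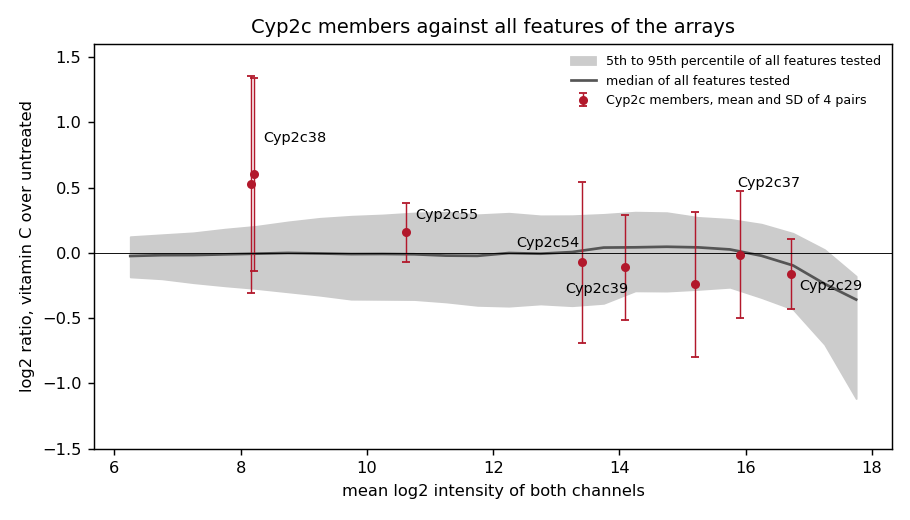
Mean log2 ratio of vitamin C over untreated (vertical axis) against mean log2 intensity (horizontal axis), with the Cyp2c probes over the 5th percentile, median and 95th percentile of all tested probes in bins of intensity. Both Cyp2c38 probes lie above the 95th percentile line near an intensity of 8, and Cyp2c29 lies near the median of its bin.

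Of 11 other Cyp2c symbols listed, 4 matched a probe (5 probes), and Cyp2c70 differed in pattern from the members. It had ratios of -0.93, -0.14, -0.68 and -0.44, below 0 in 4 of 4 pairs. Its mean was -0.55 ± 0.34 (SD, n = 4 pairs), with a limma adjusted p of 0.139, so it did not pass. Probes of like intensity had a median of -0.13. Cyp2c70, which makes muricholic acids from chenodeoxycholic acid in mouse liver, was the single one of these 5 probes with an unadjusted limma p under 0.05. By this rule 11.7% of all probes were higher and 15.5% lower, and 15.5% of all probes were below 0 on all 4 arrays. A single call among 5 probes is thus no more than these shares give.

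Both probes of Cyp2c40, an arachidonic acid hydroxylase, had their only ratio below 0 in pair 2. The first probe gave 0.44, -0.52, 0.22 and 0.36, and the second gave 0.59, -0.42, 0.16 and 0.32. Like Cyp2c38 they were above 0 in pairs 1, 3 and 4, but their means were 0.12 ± 0.44 and 0.16 ± 0.42 (SD, n = 4 pairs; limma adjusted p = 0.639 and 0.522). Cyp2c23, an epoxygenase best known from kidney, was at 0.052 ± 0.31, and Cyp2c66 at 0.0087 ± 0.15 (limma adjusted p = 0.798 and 0.945).

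Genes of the 2 lobule zones were compared with the members, since pair 4 set 4 of them apart. Of 20 pericentral hepatocyte genes, 14 lay below 0 on array 4, with a median of -0.40. On arrays 1 to 3, 6, 14 and 10 of the 20 lay below 0, with medians of 0.094, -0.15 and -0.0079. Of 18 measured periportal genes, 13 lay above 0 on array 4, with a median of 0.28, while 11 of 18 lay below 0 on each of the other arrays, with medians of -0.12, -0.11 and -0.12. The median of all 17082 genes with a symbol was 0.017 on array 4. A ratio below -0.5 on array 4 was found for 5 of 20 pericentral genes (25%) and for 6.07% of all genes. Under those 14 settings the array 4 medians ran from -0.53 to -0.30 for pericentral and from 0.079 to 0.36 for periportal genes. Here too, settings that change only the filter or the fitted model could not move them. In whole liver RNA, fewer cells of a type and less RNA per cell cannot be told apart.

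The pericentral P450 Cyp2e1, which oxidises ethanol, was highest in pair 1 and lowest in pair 4, as Cyp2c54 was, with ratios of 0.47, -0.29, 0.0079 and -0.90. Rhbg, an ammonium transporter, was at 0.04, 0.19, -0.06 and -0.58. Other pericentral genes did not follow: Lhpp had a ratio of 0.54 in pair 4 and Oat, ornithine aminotransferase, had 0.23. Among periportal genes, Sds, serine dehydratase, was at -0.21, -0.20, 0.12 and 1.06, and Etnppl, a phospholyase of phosphoethanolamine, at 0.27, 0.13, 0.31 and 1.45. Ass1, of the urea cycle, was at -0.71, -0.49, -0.53 and 0.27. The other 5 periportal genes lay below 0 in pair 4: Apoa4 at -0.57, Cyp2f2 at -0.48, Alb at -0.42, Apof at -0.37 and Arg1 at -0.36.

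**Figure D4:**
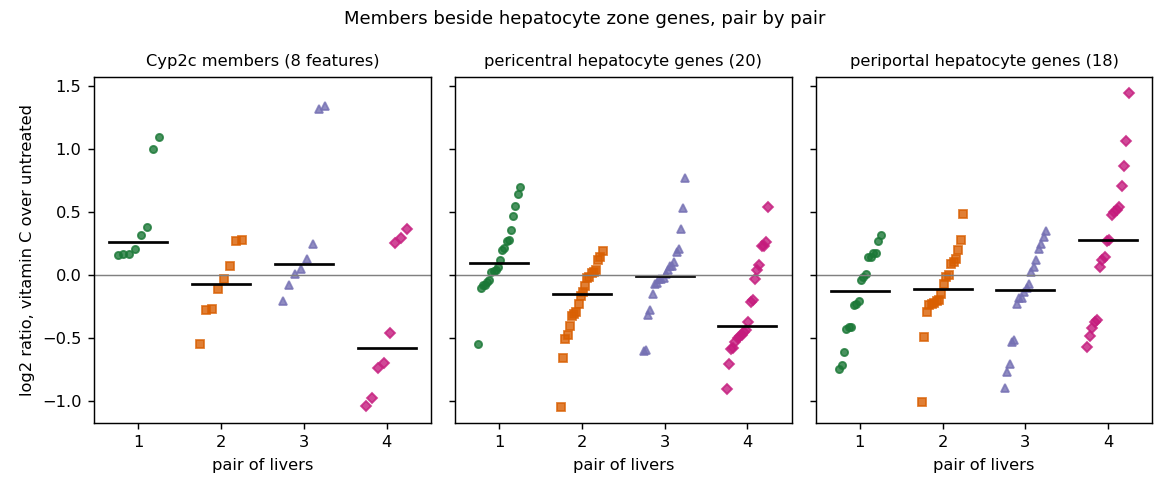
Log2 ratio of vitamin C over untreated (axis) in each pair for the Cyp2c probes, the pericentral genes and the periportal genes, each point 1 probe or gene, with the median marked. In pair 4 the medians are -0.58, -0.40 and 0.28 for the 3 sets.

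Over all 4 pairs the zone lists had genes on both sides of 0. For the pericentral list the median of the means was -0.093 (0.018 with the intensity trend taken off, and 0.023 without pair 4), with 1 of 20 genes higher and 3 lower at an unadjusted limma p under 0.05. For the periportal list it was -0.023 (0.055 with Agilent's processed signals, and 0.0093, 0.019 and 0.023 without pairs 1, 2 and 3), with 2 of 18 higher and 3 lower. Over all genes with a symbol, 15% were higher and 14.5% lower by this rule, and 0 genes of either list had an adjusted p under 0.05. Of the pericentral genes with the smallest p, Glul, glutamine synthetase, was at -0.35 ± 0.16, Gulo, the last enzyme of vitamin C synthesis, at -0.29 ± 0.15, Cyp27a1 at -0.24 ± 0.18 and Lhpp at 0.37 ± 0.40 (SD, n = 4 pairs; limma adjusted p = 0.139, 0.140, 0.150 and 0.184). Dimmer second probes of Glul and Gulo were at -0.089 and -0.046. Of the periportal genes, Cyp2f2 was at -0.57 ± 0.32 and Asl, of the urea cycle, at 0.24 ± 0.16 (limma adjusted p = 0.139 and 0.145). Cyp2f2 lies at a log2 intensity of 17.5, where the medians of probes just below and above that intensity were -0.24 and -0.36.

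The receptors that act on Cyp2c genes were examined next. Nr1i2, which encodes PXR, was above 0 in all 4 pairs, with ratios of 0.38, 0.23, 0.76 and 0.64. Its mean was 0.50 ± 0.24 (SD, n = 4 pairs), and it did not pass (limma adjusted p = 0.139). Nr1i3, which encodes CAR, gave 0.45, 0.14, 0.47 and -0.33, and so was below 0 in the same pair as Cyp2c29, Cyp2c37, Cyp2c39 and Cyp2c54. Its mean was 0.18 ± 0.37 (limma adjusted p = 0.415). Of 12 receptors, partners and cofactors, 2 were higher and 0 lower at an unadjusted limma p under 0.05. Over all genes with a symbol, 15% were higher and 14.5% lower by this rule. The median of the 12 was 0.075 (-0.066 with median centring in place of loess). Besides Nr1i2, the higher one was Ppp1r16a, at 0.18 ± 0.15 (limma adjusted p = 0.167). Hsp90ab1, a chaperone that holds CAR in the cytoplasm, was at -0.20 ± 0.22 (limma adjusted p = 0.211), and a dimmer second probe was at -0.57.

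Targets of CAR and PXR outside the Cyp2c family had a median of 0.12 over 28 measured genes of 29 listed (-0.033 with median centring in place of loess). At an unadjusted limma p under 0.05, 7 were higher and 2 lower, where 15% and 14.5% of all genes with a symbol were. Of these targets, 0 had an adjusted p under 0.05. Cyp2b10, the classic CAR target of mouse liver, gave 0.62, 0.21, 1.20 and 0.37, above 0 in 4 of 4 pairs, with a mean of 0.60 ± 0.44 (SD, n = 4 pairs; limma adjusted p = 0.142). Cyp3a11, the classic PXR target, gave 0.71, 0.45, 0.028 and -0.25, with a mean of 0.24 ± 0.43 (limma adjusted p = 0.362).

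Cyp2b10 was highest in pairs 1 and 3, as Cyp2c38 was, but it stayed above 0 in pair 2. Gsta2 and Gsta1, glutathione transferases, were at 0.93 ± 0.64 and 0.62 ± 0.43 (SD, n = 4 pairs; limma adjusted p = 0.140 each). These genes have close paralogs, so their probes are uncertain in the same way. Below 0 in all 4 pairs were Abcc2, a canalicular exporter, at -0.33 ± 0.10, and Aldh1a1, which makes retinoic acid, at -0.48 ± 0.33 (limma adjusted p = 0.139 and 0.140).

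Partners of P450 enzymes also stayed short of the threshold. Of 14 electron donors and genes of heme supply, 4 were higher and 1 lower at an unadjusted limma p under 0.05. By this rule 15% of all genes with a symbol were higher and 14.5% lower. The list had a median of 0.15 (-0.014 with median centring in place of loess). Por, which encodes P450 reductase, gave 0.036, -0.62, 0.63 and 0.46, with a mean of 0.13 ± 0.56 (SD, n = 4 pairs; limma adjusted p = 0.708). Its lowest pair was pair 2, as for Cyp2c38. Cyb5a, which encodes cytochrome b5, gave 0.20, 0.047, -0.17 and -0.81, and thus had its lowest value in pair 4, as Cyp2c54 did. Its mean was -0.18 ± 0.44 (limma adjusted p = 0.489). Pgrmc1, a heme-binding partner of P450 enzymes, was at -0.46 ± 0.15 (limma adjusted p = 0.139). The heme synthesis genes Fech and Ppox were at 0.25 ± 0.15 and 0.18 ± 0.09 (limma adjusted p = 0.141 and 0.145), and a dimmer second Fech probe was at 0.025. Alas1, the first enzyme of heme synthesis, gave -0.87, -0.65, -0.84 and 0.39.

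Among 14 measured epoxide hydrolases and other arachidonate oxidases of 16 listed, 2 were higher and 1 lower at an unadjusted limma p under 0.05. The shares over all genes with a symbol were 15% higher and 14.5% lower. Their median was 0.076 for this list (-0.060 with median centring in place of loess). Ephx2, the soluble epoxide hydrolase that acts on Cyp2c products, gave -0.31, -0.25, -0.35 and -0.71, below 0 in 4 of 4 pairs. Its mean was -0.41 ± 0.21 (SD, n = 4 pairs; limma adjusted p = 0.139). Ephx2, Pgrmc1 and Aldh1a1 have log2 intensities of 17.3, 17.2 and 17.2, where the median of 98 probes of like intensity was -0.24, and the part of this shift in their ratios was not tested. Ephx1, the microsomal epoxide hydrolase, was at 0.023 ± 0.26 (limma adjusted p = 0.900).

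Genes outside the family were ranked by how close their 4 ratios lay to the mean profile of the 6 measured members, which was 0.38, -0.019, 0.28 and -0.37. The closest were Atp9a, Plscr2, Ces1g, Ugt1a1 and Kcnab3, at root mean square differences of 0.0600, 0.0661, 0.0788, 0.0859 and 0.0947 in log2 ratio over the 4 arrays. Ces1g is a liver carboxylesterase, and Ugt1a1, which glucuronidates bilirubin, is on the list of CAR and PXR targets. Closest to the mean of Cyp2c29, Cyp2c37, Cyp2c39 and Cyp2c54 were Inhbe, Slc25a20 and Ormdl3, at 0.0563, 0.0639 and 0.0854, and closest to Cyp2c38 were Stap1 and 2010003K11Rik, at 0.123 and 0.131. With 4 arrays and many genes, close profiles arise easily, and these are descriptions.

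Markers of other cells were set beside the low values of pair 4. Of 10 measured Kupffer cell and macrophage markers of 11 listed, 9 were above 0 on array 4, with a median of 0.45, and 10 of 10 were above 0 on array 2, with a median of 0.32. On arrays 1 and 3 their medians were -0.24 and 0.059. Their summed level was 58780 to 98957 in vitamin C livers and 57734 to 81592 in untreated livers, in normalized intensity units, and all 10 were well above background. C1qa was at 0.42 ± 0.28 and C1qb at 0.37 ± 0.25 (SD, n = 4 pairs; limma adjusted p = 0.140 each), the 2 of the 10 that were above 0 in every pair. Csf1r was at -0.14 ± 0.22 (limma adjusted p = 0.326), with dimmer probes at 0.24 and 0.10. Without pair 2 or pair 4 the median of the list, 0.18 over all pairs, was 0.069 or 0.067. Their part in the ratios of the Cyp2c members was not tested. The median of 10 hepatocyte identity genes was -0.43, -0.17, -0.48 and -0.11 on arrays 1 to 4, so it was nearest to 0 in the pair in which 4 Cyp2c members were lowest. At an unadjusted limma p under 0.05, 3 of 10 Kupffer cell markers were higher and 0 lower. Of 10 hepatocyte identity genes, 0 were higher and 6 lower by this rule. Over all genes with a symbol the shares were 15% higher and 14.5% lower. In both lists 0 genes had an adjusted p under 0.05. The hepatocyte identity median of -0.34 was -0.069 with the intensity trend taken off and -0.59 with median centring in place of loess. Alb, albumin, was at -0.70 ± 0.25 (SD, n = 4 pairs; limma adjusted p = 0.139), at an intensity where ratios of other probes were also below 0. Apob was at -1.71 ± 0.84 (limma adjusted p = 0.139), with dimmer probes at -1.53 to -0.36. Its log2 intensity was 15.9, where the median of probes of like intensity was 0.027. The medians of the markers of endothelial cells, stellate cells, cholangiocytes, T and NK cells, red blood cells and of adipocyte and intestinal tissue were 0.066, -0.037, -0.061, -0.034, -0.074 and 0.061. The signs of some turned with a pair left out: endothelial to -0.0047 without pair 4, stellate to 0.050 without pair 2, cholangiocyte to 0.024 without pair 3, and T and NK cell to 0.00096 without pair 1. The endothelial median was also -0.021 with median centring, and the T and NK cell median 0.0095 with Agilent's processed signals.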

How the data were processed

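All 4 arrays were on 1 slide with 1 scan date. Per the file headers, the authors used Agilent Feature Extraction 10.5.1.1, and the deposited intensity values are median signals, median local backgrounds and processed signals. The deposited log10 ratio runs as Cy5 over Cy3. The authors also deposited a log2 table, and limma is named in the submitters' processing notes with no version. It correlated with the ratios computed here at r = -0.990, -0.982, -0.989 and -0.992 (across probes), its column medians were 0.00374, 0.00497, 0.00225 and 0.00136, and with its sign turned it gave -0.15 for Cyp2c29, against -0.16 here, and 0.72 for the first Cyp2c38 probe, against 0.60 here. No source used here states the steps behind it or its exact scale. It served as an alternative with its sign turned.

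Here log2 ratios of Cy3 over Cy5 were computed after normexp (offset 50) on median signals, since the files give medians, and loess within each array with control spots and flagged spots at weight 0. Flagged spots were left out and spots of a probe averaged. Levels per liver were taken after Aquantile between arrays, and are open to dye bias. A probe was kept if at least 3 of the 4 arrays had it well above background in 1 channel or both. Ratios were tested against 0 with limma 3.58.1 (lmFit and eBayes; R 4.3.3, statmod 1.5.0), with Benjamini-Hochberg adjustment over 39328 probes, and a threshold of 0.05. The loess and limma steps were tested on simulated ratios, with noise drawn independently for each array. Background correction, flagging, averaging of spots and the levels per liver were not part of that test. Python 3.11.15, Biopython 1.88 and matplotlib 3.10.9 were used for sequences and figures. Of 41174 probes, 25097 had a symbol through a RefSeq gene table of GRCm38.p6. That is not the build of the array design, so its coordinates are given for promoter windows only.

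The members and gene lists were chosen with earlier results of these data known. Named were all member probes, every other Cyp2c gene with a probe, and up to 4 genes of a list with the smallest p. Also named were 10 pathway genes in any case and the 5 genes nearest to the members' mean profile. Further genes of the zone lists, Alas1, and the genes nearest to parts of the family were named after their values were seen. For a gene in a list, the brightest of its probes stood for it. Alternatives covered background, normalization, scaling, filters, the variance model, separate channels, the deposited table and each replicate left out. The number of arrays limits the precision. Labels call the livers biological replicates and do not say what the livers of a pair share. Some genes that the naming rule took are not reported here.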

Additional observations from a re-analysis of the deposited data

Results flagged for a closer look

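Of 55 groups of 4 values looked at, 5 had 1 value far from the other 3, where chance alone gives about 1 in 20 independent groups. These groups are not independent, since a ratio and the levels behind it share values, and several of the 5 come from pair 4. The count is therefore not evidence of an excess over chance. The measure is the gap to the nearest value over the whole range, and each of the 5 exceeded Dixon's 95% critical value for 4 samples. In the first Cyp2c37 probe the ratio of pair 4 (-0.73, against 0.16 to 0.28 in the other pairs) gave 0.887, and its level in treated liver 4 (15.25, against 16.08 to 16.16 in the other vitamin C livers) gave 0.916. For Cyp2c39, the level in treated liver 4 (13.45, against 14.18 to 14.27) gave 0.893. For the first Cyp2c40 probe, the level in treated liver 2 (16.08, against 16.58 to 16.67) gave 0.858. The periportal list gave 0.977, with a median ratio of 0.28 in pair 4 and -0.12 to -0.11 in the other pairs.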

How the results depend on the processing

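No member probe passed in limma under any alternative except without replicate 2, where 2 passed (0 to 2 over the replicates left out), while the count over all probes ran from 0 to 9688. Median centring without loess called 11893 of all probes and 0 members, with 1 member higher and 1 lower at an unadjusted p under 0.05. Leaving out a replicate gave 0 to 3 members higher and 0 to 1 lower by that rule, and the count over all probes ran from 2123 to 7240 higher and from 1904 to 9107 lower. Above 0 on every array left were 0 to 3 member probes (7053 to 11523 of all), and below 0 were 0 to 1 (7071 to 12801 of all). Signs turned for Cyp2c29 with Agilent's processed signals (0.0031) and for the first Cyp2c37 probe with scaled arrays (0.035). Without replicate 4 they turned for both Cyp2c37 probes (-0.11 to 0.23 and -0.39 to 0.025 over the replicates left out), Cyp2c39 (-0.20 to 0.087) and Cyp2c54 (-0.23 to 0.23). Cyp2c38 was above 0 under every alternative (0.25 to 0.89 over both probes). The median over the member probes was -0.14 to 0.16 over the replicates left out, 0.014 with scaled arrays and -0.20 with median centring without loess. That centring also put Cyp2c29 at -0.39 (limma adjusted p = 0.0524) and Cyp2c55 at 0.0072, against -0.16 and 0.16. Separate channels with the array as a replicate block gave 4585 higher and 6113 lower over all probes, as the ratio did, and without the block 2730 and 2905, with 0 members in each.

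The arrays cannot separate dye from treatment, and 4 pairs with 1 outlying array leave wide intervals. The cause of array 2 standing apart was not tested.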
